A study of Rattus norvegicus with 21 samples.

Results

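Gene expression in the rat dentate gyrus was read for 10 genes used as markers of successive stages of neurogenesis. They were Nes, Eomes, Sox4, Sox11, Neurod1, Nhlh1, Igfbpl1, Dcx, Stmn1 and Tubb3. The genes were chosen by name, and each was read from the brightest probe set annotated to that symbol alone. Of the 10 genes, 9 had such a probe set and 8 lay above the filter on low values, among 14506 genes with 1 symbol and 10804 genes tested. Nes fell below the filter, and Eomes was represented only on a probe set annotated to both Golga4 and Eomes.

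Total RNA of the dissected dentate gyrus was hybridised to Affymetrix arrays from 18 wild-type male Wistar rats, labelled as 2 months old, 3 in each of 6 groups. The 4 treated groups had an antidepressant, injected intraperitoneally each day over the last 2 weeks of a 6-week course of unpredictable chronic mild stress: agomelatine at 40 mg/kg in hydroxyethylcellulose, fluoxetine at 10 mg/kg in water, and imipramine and tianeptine, each at 10 mg/kg in saline. A stress group had the same stress and no drug, and a control group was untreated. The labels do not say whether stress and control animals were injected, so drug, vehicle and daily injection cannot be told apart, and agomelatine differs from the other drugs in dose and vehicle as well. Each of the 3 control animals was run on a repeat array, giving 21 arrays, and the arrays of an animal were averaged.

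In the adult dentate gyrus, radial glia-like stem cells that express nestin (Nes) give rise to dividing intermediate progenitors, which express the T-box factor Tbr2 (Eomes). Their daughters switch on the basic helix-loop-helix (bHLH) factors Neurod1 and Nhlh1 and the SoxC factors Sox4 and Sox11, and then the microtubule proteins of migrating and extending young neurons, doublecortin (Dcx), stathmin (Stmn1) and class III beta-tubulin (Tubb3). In mature granule neurons doublecortin and Sox11 are lost, whereas Prox1 and calbindin (Calb1) are present. In bulk tissue fewer cells of a type and less RNA per cell cannot be told apart. Nor can the parts of a gene's signal that come from newborn and from mature neurons.

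Nhlh1 and Neurod1 were the members with the most calls, and the 250 bases upstream of their start sites are shown because bHLH factors bind E-boxes, written CANNTG. The sequences are RefSeq's for the build GRCr8, given 5′ to 3′ on the gene's own strand, with each E-box in capitals. The Neurod1 stretch lies at chr3:84770455-84770704 on the minus strand and the Nhlh1 stretch at chr13:87054935-87055184 on the minus strand.
Neurod1: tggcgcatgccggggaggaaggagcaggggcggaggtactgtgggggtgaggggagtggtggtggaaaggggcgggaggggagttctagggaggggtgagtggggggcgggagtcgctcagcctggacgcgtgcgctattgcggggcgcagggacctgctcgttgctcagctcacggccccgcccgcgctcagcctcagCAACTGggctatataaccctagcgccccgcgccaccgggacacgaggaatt
Nhlh1: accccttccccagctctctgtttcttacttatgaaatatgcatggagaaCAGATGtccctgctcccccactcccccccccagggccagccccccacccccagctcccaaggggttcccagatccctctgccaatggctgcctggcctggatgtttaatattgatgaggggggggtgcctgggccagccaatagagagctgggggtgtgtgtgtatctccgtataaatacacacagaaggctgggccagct

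Each stretch held 1 CANNTG match, CAACTG with its first base at -51 from the Neurod1 start and CAGATG with its first base at -201 from the Nhlh1 start. The motif reads as CANNTG on either strand, and 65.5% of 33469 RefSeq promoters of this length held at least 1 match. CAGATG on either strand was in 14.0% of them. Of the 9 members with a promoter entry, Sox11 had 2 matches, Stmn1 had 3, Igfbpl1 had 1, and Dcx, Tubb3, Nes and Eomes had 0. A match describes these letters and is no measure of binding.

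Expression is given as log2 values, and a difference of 1 is a doubling. A gene was called at a Benjamini-Hochberg adjusted p under 0.05 from limma, fitted over all 10804 genes. With the 8 tested members in 14 comparisons, calls were confined to comparisons that set agomelatine alone against another group: Nhlh1 was called in 6, Neurod1 in 5, Igfbpl1 in 3 and Sox11 in 1. Dcx, Sox4, Stmn1 and Tubb3 were called in 0 of 14. A moderated F test over the 6 groups called 2 of the 8 members, Nhlh1 (adjusted p = 0.00482) and Neurod1 (adjusted p = 0.0240), where 6.76% of all tested genes passed.

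**Figure D1:**
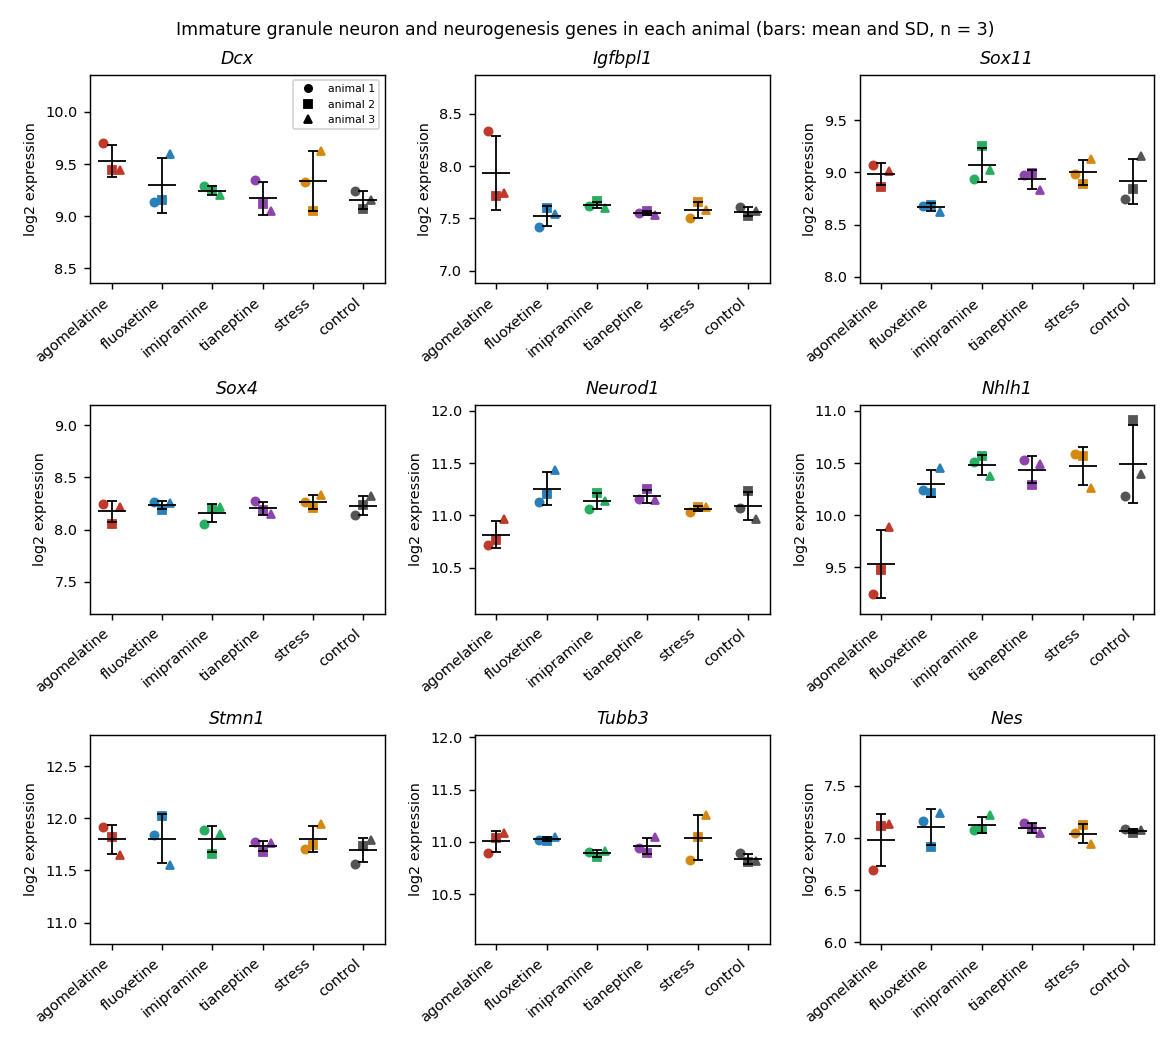
Log2 expression (y axis, each panel spanning the same number of log2 units) of 9 members in each of the 18 animals by group, with the mean and SD of 3 animals per group as bars. The agomelatine animals are the 3 lowest of 18 for Nhlh1 (9.24 to 9.89) and Neurod1 (10.72 to 10.96) and the 3 highest for Igfbpl1 (7.72 to 8.34).

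The agomelatine animals stood apart from the other groups across the array. In agomelatine against stress 1163 of 10804 genes were called, 10.8% of those tested, while stress against control and fluoxetine, imipramine and tianeptine against stress each called 0. With the repeat control arrays only, stress against control called 126 genes, and fluoxetine, imipramine and tianeptine against control called 79, 187 and 60, in each case with 0 members. The median SD between animals was 0.114 in the agomelatine group and 0.0631 to 0.0852 in the others. Markers of the tissue were present: the granule neuron genes Prox1 (mean 11.54), C1ql2 (11.70), Calb1 (10.75) and Trpc6 (10.35) were above the filter, and Tdo2 (5.31) was below it. Probes for oligodendrocyte, astrocyte and CA-field pyramidal genes gave signal too.

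Nhlh1, a bHLH factor of neuronal precursors, was lower with agomelatine than in every other group. It measured 9.24, 9.47 and 9.89 in the agomelatine animals. The values were 10.24, 10.22 and 10.45 with fluoxetine, 10.51, 10.57 and 10.38 with imipramine, and 10.53, 10.29 and 10.49 with tianeptine. Stress animals had 10.58, 10.57 and 10.26, and control animals 10.18, 10.91 and 10.40. The highest agomelatine animal lay below the lowest of the other 15, and the other 5 groups overlapped one another.

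Against stress alone Nhlh1 fell by 0.94 ± 0.16 (SE) on the log2 scale, 1.91-fold, with a 95% interval of -1.27 to -0.60 and an adjusted p of 0.00215 by limma. It was the single member called there, 1 of 8, where 10.8% of all genes were called, and it ranked 64 of 10804 by p. The fall was 0.96 against control (adjusted p = 0.00169), 0.77 against fluoxetine (0.00521), 0.95 against imipramine (0.00168) and 0.90 against tianeptine (0.00185). Against the 3 other drugs averaged it was 0.87 ± 0.13 (adjusted p = 0.000220). These comparisons share the agomelatine animals and are not independent.

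Neurod1, the bHLH factor needed for granule neuron differentiation and survival, was also lowest with agomelatine, by less. Its other groups stood in another order, with fluoxetine highest. Its values were 10.72, 10.76 and 10.96 with agomelatine. They were 11.13, 11.20 and 11.44 with fluoxetine, 11.06, 11.21 and 11.14 with imipramine, and 11.15, 11.25 and 11.14 with tianeptine. Stress animals had 11.03, 11.08 and 11.08, and control animals 11.07, 11.24 and 10.97. The agomelatine animals were again the lowest 3 of 18, although agomelatine animal 3 and control animal 3 lay close together.

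Against control Neurod1 fell by 0.28 ± 0.08 (adjusted p = 0.0403), so that 2 of 8 members, Nhlh1 and Neurod1, were called there against 9.59% of all genes. The difference from stress, -0.25 ± 0.08, missed the threshold (adjusted p = 0.0549). Neurod1 fell by 0.44 against fluoxetine (adjusted p = 0.00241), by 0.32 against imipramine (0.0186) and by 0.37 against tianeptine (0.00711). The call against fluoxetine was lost with only the groups compared (adjusted p = 0.0619). The call against imipramine was lost without agomelatine animal 1 or 2 or imipramine animal 2 or 3 (limma, adjusted p 0.0548 to 0.0888). The difference from control lost its call without agomelatine animal 1 (-0.23, adjusted p = 0.156), agomelatine animal 2 (-0.25, 0.0885), control animal 1 (-0.29, 0.0886) or control animal 2 (-0.20, 0.210). It was also lost with no filter on low values, with every probe set on its own, with the first control arrays only, with arrays centred on equal medians, with eBayes without trend, with array weights and with only the groups compared (limma, adjusted p 0.0503 to 0.119).

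Markers of some other cell types moved with the agomelatine group. Their levels are given as scores: log2 values are centred on 0 for each gene and then averaged over a list in each animal. All 9 tested oligodendrocyte markers of 10 listed rose against stress, among them the myelin genes Mbp (0.48), Mog (0.65) and Opalin (1.18). Their score ran from 0.400 to 0.757 in agomelatine animals and from -0.204 to 0.0389 in the other 15. The mature granule neuron score, over 4 tested markers of 8, ran from -0.387 to -0.112 with agomelatine and from -0.114 to 0.205 elsewhere. The oligodendrocyte precursor score, over 7 tested markers of 8, ran from 0.0954 to 0.210 with agomelatine and reached 0.0897 elsewhere. Of 8 tested astrocyte markers 8 were below 0 against stress (median -0.18), and 1 was called, Aldh1l1 (-0.24), beside 10.8% of all genes. Against control 3 were above 0 and 5 below, with 0 called. The astrocyte score ran from -0.230 to 0.0250 with agomelatine and from -0.0774 to 0.111 elsewhere, so its ranges overlapped. The ranges of the microglia score and of the endothelial and pericyte score overlapped too. C1ql2, a synaptic organiser secreted by granule neurons, fell by 0.55 against stress (adjusted p = 0.000254), and Prox1, the granule neuron identity factor, fell by 0.44 against control (adjusted p = 0.00547), but its difference from stress was -0.24 (0.0915).

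The CA-field pyramidal score, over 6 tested markers of 8, was 0.436, 0.446 and -0.102 in agomelatine animals 1, 2 and 3, and reached 0.294 in the other animals. With the mature granule neuron score as a covariate, chosen after the values were seen, the Nhlh1 difference from stress was -0.50 ± 0.19 (adjusted p = 0.103). With the oligodendrocyte score as a covariate it was -0.94 ± 0.37 (adjusted p = 0.300), and 0 of 10804 genes were called in that comparison; the score by itself separates the 3 agomelatine animals from the rest. Beyond these fits and those with the choroid plexus and CA pyramidal scores, the part of other cell types in these results was not tested. With the choroid plexus or the CA pyramidal score as a covariate Nhlh1 kept its calls, and Neurod1 lost its calls against control (-0.23, adjusted p = 0.132, and -0.19, 0.248) and against imipramine (-0.28, 0.0630, and -0.24, 0.129). With the mature granule neuron score the Neurod1 difference from control was -0.09 (adjusted p = 0.758), and with the oligodendrocyte score it was -0.26 (0.700).

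**Figure D2:**
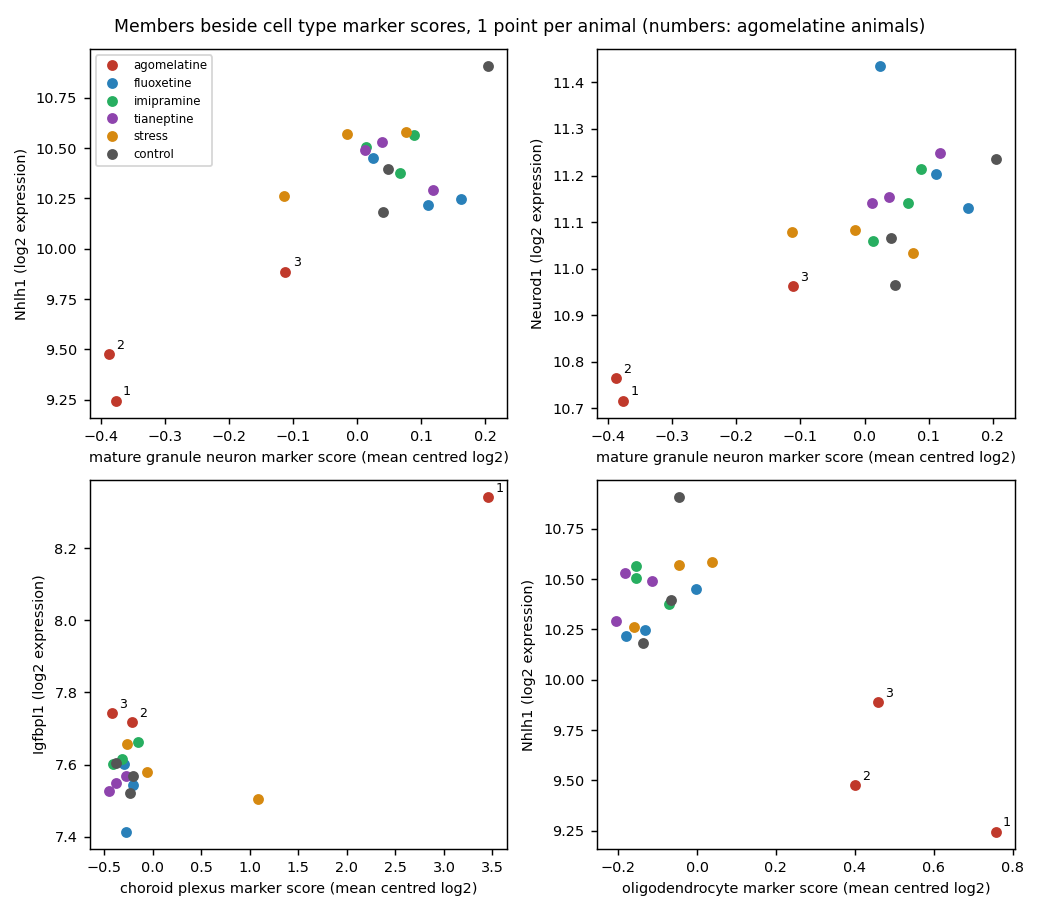
Members (y axes, log2 expression) against cell type marker scores (x axes, mean centred log2), 1 point per animal, coloured by group, with agomelatine animals numbered 1 to 3. Agomelatine animals 1 and 2 have the lowest granule neuron scores and the lowest Nhlh1 and Neurod1, and agomelatine animal 1 has both the highest choroid plexus score (3.46) and the highest Igfbpl1 (8.34).

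Within groups Nhlh1 and Neurod1 also varied together: after the group means were taken out, their correlation over the 18 animals was 0.62. With the granule neuron score the correlation within groups was 0.64 for Nhlh1 and 0.40 for Neurod1. With the oligodendrocyte score it was 0.01 for Nhlh1 and -0.03 for Neurod1, but with the oligodendrocyte precursor score it was -0.54 and -0.59. With the CA pyramidal score it was -0.64 for Nhlh1 and -0.39 for Neurod1, and with the astrocyte score -0.40 and -0.48. Before the group means were taken out, the correlation with the granule neuron score was 0.85 for Nhlh1, 0.79 for Neurod1 and -0.69 for Dcx. The values of an animal come from 1 RNA sample and 1 array normalisation, and these correlations are given as descriptions.

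Igfbpl1, an insulin-like growth factor binding protein-like gene of young neurons, was higher with agomelatine, mostly through 1 animal. It measured 8.34, 7.72 and 7.74 in the agomelatine animals. The fluoxetine animals had 7.41, 7.60 and 7.54, the imipramine animals 7.62, 7.66 and 7.60, and the tianeptine animals 7.55, 7.57 and 7.53. Stress animals had 7.51, 7.66 and 7.58, and control animals 7.61, 7.52 and 7.57. All 3 agomelatine animals were above the other 15, whose highest value was 7.66, but animals 2 and 3 lay within 0.1 of it.

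Igfbpl1 rose by 0.41 ± 0.12 against fluoxetine (adjusted p = 0.0276) and by 0.39 ± 0.12 against tianeptine (0.0349). Against the 3 other drugs averaged it rose by 0.37 ± 0.09 (0.0112). The differences from stress (0.35, adjusted p = 0.0567), control (0.37, 0.0516) and imipramine (0.31, 0.103) missed the threshold. Against control it passed with the first control arrays only (adjusted p = 0.0250), with arrays centred on equal medians (0.0389) and with a further quantile normalisation (0.0363). With all 21 arrays and a random term per animal it passed too (0.0208). That fit put the correlation between arrays of an animal at 0.16, so a repeat array counted nearly as a further animal. Against stress Igfbpl1 passed with centred arrays (0.0222). All 3 differences passed without agomelatine animal 2 or 3 (limma, adjusted p 0.0196 to 0.0403). Without agomelatine animal 1 none of these passed: the difference was 0.21 against fluoxetine (adjusted p = 0.0848), 0.18 against tianeptine (0.134), 0.17 against the 3 drugs averaged (0.0949) and 0.15 against stress (0.212).

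That animal also held the signal of choroid plexus, the secretory epithelium of the ventricle. Its transthyretin (Ttr) was 14.01, against 7.58 and 7.29 in the other agomelatine animals, and klotho (Kl) was 10.81, against 6.82 and 6.88. The choroid plexus score, over 4 tested markers of 8, was 3.46 in agomelatine animal 1. The next highest was 1.08 in stress animal 1, where Igfbpl1 was 7.51. Within groups Igfbpl1 correlated with this score at 0.83 over 18 animals, with agomelatine animal 1 the highest in both. In the stress group, stress animal 1 had the highest score and the lowest Igfbpl1. With the score as a covariate the rise against fluoxetine was 0.25 (adjusted p = 0.0818).

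Dcx, the microtubule-associated protein of migrating neuroblasts and the usual marker of newborn granule neurons, passed in none of the 14 comparisons in the fit over all animals. Its values were 9.70, 9.44 and 9.44 with agomelatine. They were 9.13, 9.16 and 9.59 with fluoxetine, 9.29, 9.25 and 9.20 with imipramine, and 9.35, 9.11 and 9.05 with tianeptine. Stress animals had 9.33, 9.05 and 9.62, and control animals 9.24, 9.07 and 9.15. All agomelatine animals lay above all control, imipramine and tianeptine animals, while fluoxetine animal 3 and stress animal 3 reached their level.

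The Dcx difference was 0.37 ± 0.13 for agomelatine against control (interval 0.10 to 0.65, adjusted p = 0.0809) and 0.19 ± 0.13 against stress (-0.08 to 0.47, adjusted p = 0.365). Against the 3 other drugs averaged it was 0.29 ± 0.11 (adjusted p = 0.0642). It passed there with centred arrays (limma, adjusted p = 0.0404) and with a further quantile normalisation (0.0490). Without fluoxetine animal 3 (0.0171) or tianeptine animal 1 (0.0488) it passed as well. The Dcx difference from control passed when each control animal was read from its first array only (0.40, adjusted p = 0.0460). It also passed when all 21 arrays entered with a random term per animal (0.37, 0.0290). That fit put the correlation between arrays of an animal at 0.16, so a repeat array counted nearly as a further animal. With the mature granule neuron score as a covariate the Dcx difference from control was -0.02, and with the CA pyramidal score 0.15 (adjusted p = 0.556). Neither passed. Stress against control gave 0.18 ± 0.13, with an interval of -0.10 to 0.46 and an adjusted p of 0.854. Of the 8 members, 5 did not overlap between agomelatine and control, where 25.7% of all genes did not: Dcx, Igfbpl1 and Tubb3 were higher and Nhlh1 and Neurod1 lower. For Tubb3 the lowest agomelatine animal (10.894) and the highest control animal (10.892) lay close together. Between agomelatine and stress 3 members did not overlap, Igfbpl1 higher and Nhlh1 and Neurod1 lower, where 25.2% of genes did not. The members went both ways, and their median difference from stress was -0.03, beside a median of -0.03 over all tested genes.

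Sox11, a SoxC factor needed for adult-born neurons in mice, where it activates Dcx, was lowest in the fluoxetine group. Fluoxetine animals had 8.68, 8.69 and 8.62. The values were 9.07, 8.86 and 9.01 with agomelatine, 8.93, 9.25 and 9.02 with imipramine, and 8.97, 8.99 and 8.83 with tianeptine. Stress animals had 8.98, 8.89 and 9.13, and control animals 8.75, 8.84 and 9.15. The 3 fluoxetine animals were the lowest of the 18.

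The call for Sox11 was in agomelatine against fluoxetine, 0.32 ± 0.10 higher with an adjusted p of 0.0485, where 4 of 8 members and 11.8% of all genes were called. The call ended in 17 of 24 alternatives. Leaving out any of 5 animals of these groups, agomelatine 1 or 3 or any fluoxetine animal, ended it (limma, adjusted p 0.0895 to 0.139). Fluoxetine against stress gave -0.34 ± 0.10, rank 33 of 10804 by p, with an unadjusted p of 0.00384 and an adjusted p of 0.959. Fluoxetine against control gave -0.25 ± 0.10 (adjusted p = 0.967).

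Sox11 was also the member that differed most between the arrays of 1 animal. The repeat arrays of control animals 1, 2 and 3 read 8.96, 8.97 and 9.24, against 8.53, 8.70 and 9.07 on their first arrays. The repeat was higher in 3 of 3 animals, by 0.29 on average, close in size to the difference between fluoxetine and stress. For the other tested members this mean shift ran from -0.12 in Tubb3 to 0.08 in Igfbpl1. Fluoxetine against control was -0.10 with first arrays only (adjusted p = 1.00) and -0.39 with repeat arrays only (0.0588).

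**Figure D3:**
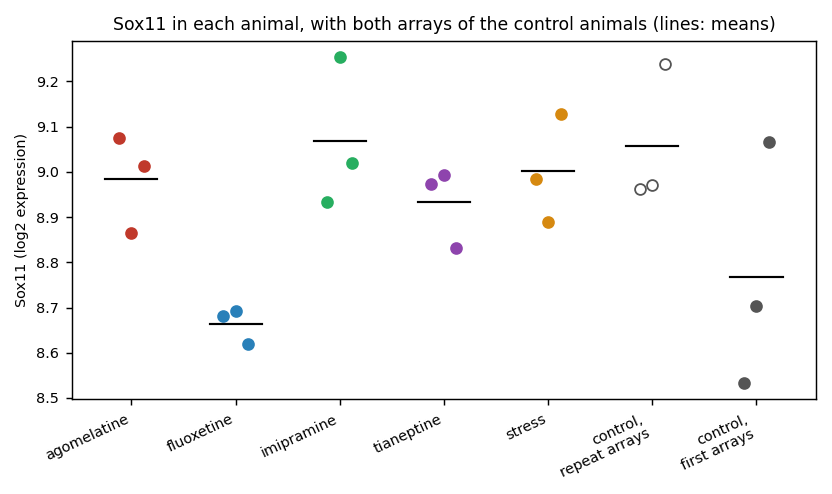
Sox11 log2 expression (y axis) in each animal, with the control animals shown by their repeat arrays (open) and first arrays (filled); lines are means of 3. The fluoxetine animals lie between 8.62 and 8.69, below all 3 repeat control arrays and between the lower first control arrays (8.53 and 8.70).

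Sox4, the other SoxC factor, stayed between 8.06 and 8.34 in the 18 animals. Its group means were 8.18 with agomelatine, 8.23 with fluoxetine, 8.16 with imipramine, 8.20 with tianeptine, 8.27 under stress and 8.23 in controls. Every comparison lay between -0.11 and 0.04, with a smallest adjusted p of 0.454. Within groups Sox4 and Sox11 had the highest correlation among the 28 pairs of members, 0.79 over 18 animals. Before the group means were taken out it was 0.28.

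Stmn1, which destabilises microtubules, and Tubb3, the neuronal beta-tubulin, are also carried by mature neurons. Stmn1 ran from 11.55 in fluoxetine animal 3 to 12.03 in fluoxetine animal 2, so that 1 group spanned the whole range of the 18 animals. Its comparisons lay between -0.06 and 0.11. Tubb3 values were 10.82, 11.05 and 11.25 in stress animals and 10.89, 10.81 and 10.81 in controls, so stress animal 1 overlapped the controls.

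Tubb3 gave the smallest p among members for stress against control, 0.20 ± 0.08 with an unadjusted p of 0.0197 and an adjusted p of 0.828. All agomelatine (10.89, 11.03 and 11.09), fluoxetine (11.02, 11.01 and 11.04) and tianeptine animals (10.94, 10.90 and 11.04) lay above all controls. The differences from control were 0.17, 0.19 and 0.12, and none passed. These 3 comparisons share the control animals. The nearest animals lay close together: 10.894 in agomelatine animal 1, 10.896 in tianeptine animal 2 and 10.892 in control animal 1. Of the controls' own arrays, Tubb3 read lower on the repeat array in 2 of 3 animals, by 0.23 and 0.20. On the first arrays, control animals 1 and 2 read 11.01 and 10.91, above agomelatine animal 1 and tianeptine animal 2.

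Nes, the intermediate filament of neural stem cells, averaged 7.07, below the filter at 7.165, and was outside the main fit. Agomelatine animals had 6.70, 7.11 and 7.13, stress animals 7.04, 7.13 and 6.95, and control animals 7.08, 7.04 and 7.08. With no filter its differences lay between -0.15 and 0.09 and its smallest adjusted p was 0.340. The probe set shared by Golga4 and Eomes ran from 8.52 to 8.80 over the animals, and its reading cannot be assigned to Eomes.

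Away from agomelatine no member was called. Stress against control, fluoxetine, imipramine and tianeptine against stress, and the same 3 drugs against control made 56 member tests, of which limma called 0, beside 0% to 0.0185% of all genes. An unadjusted p under 0.05 came in 5 of the 56, 8.93%, beside 6.10% over all genes in these comparisons. The largest difference was 0.34 and the smallest adjusted p 0.518. Members that did not overlap with stress were 2 of 8 for fluoxetine (Neurod1 higher, Sox11 lower, 10.8% of all genes), 0 for imipramine (19.7%) and 1 for tianeptine (Neurod1 higher, 11.2%). Against control they were 2 for fluoxetine (Tubb3 higher, Sox11 lower, 11.5%), 0 for imipramine (19.3%) and 1 for tianeptine (Tubb3 higher, 10.9%). For tianeptine that separation was narrow, 10.896 in its lowest animal and 10.892 in the highest control animal.

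Between stress and control 0 members had separate groups, where 13.1% of genes did. For the members, the 95% intervals of stress against control reached at most 0.46 upward, in Dcx, and -0.36 downward, in Nhlh1. A p above the threshold leaves room for changes within these intervals. The mean of the 4 drugs against stress called 0 of 8, beside 0.0278% of all genes. Nhlh1 gave -0.28 there (adjusted p = 0.549), with the agomelatine animals in that mean.

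**Figure D4:**
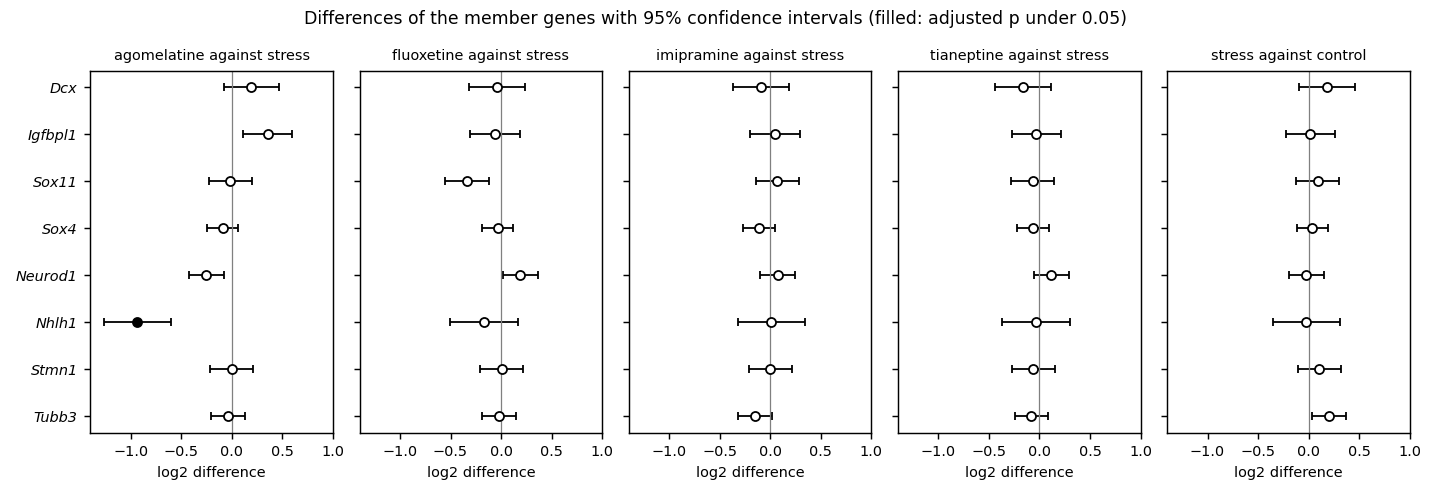
Differences in log2 expression (x axis) of the 8 tested members (rows) with 95% confidence intervals in 5 comparisons; filled points have an adjusted p under 0.05. Nhlh1 in agomelatine against stress, at -0.94, is the single filled point.

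The other contrasts of agomelatine with single drugs repeated the lower Nhlh1 and Neurod1, with shared animals. Against imipramine 2 of 8 members were called, Nhlh1 and Neurod1, beside 9.39% of all genes. Against tianeptine it was 3, with Igfbpl1 higher, beside 13.5%, and against the 3 drugs averaged also 3, beside 19.1%. Members without overlap numbered 4 of 8 against fluoxetine (24.5% of all genes), imipramine (28.2%) and tianeptine (26.9%).

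The members as a set did not share 1 profile over the animals. The 28 pairwise correlations of members had a median of 0.06, with 16 above 0, and ran from -0.75 between Nhlh1 and Igfbpl1 to 0.75 between Nhlh1 and Neurod1. Both extremes include the agomelatine animals, and within groups they were -0.47 and 0.62. Among 10796 tested genes that are no members, Gab2 followed Dcx most closely (r = 0.90 over 18 animals, 0.92 within groups), then Ext1 (0.87), Klhl13 (0.86), Smad2 (0.84), Stard10 (0.84) and Chrna5 (0.84). Map7 (-0.81), Nmt1 (-0.81) and Olfm1 (-0.80) ran most against it.

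Sox11 was most closely followed by Pde7a (r = 0.85), Mphosph8 (0.82), Slu7 (0.81), Armcx1 (0.80), Bnip2 (0.80) and Smc1a (0.80). Coq4 (-0.75), Gabbr2 (-0.74) and Rab3d (-0.72) ran most against it. These genes are the extremes of 10796 correlations and are given as a description.

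Other genes of the neurogenic lineage were read from lists. Among 41 tested of 51 other immature neuron genes, 4 rose and 1 fell with agomelatine against stress, a share close to the 10.8% called over all genes, with a median of 0.01 beside -0.03 over all genes. The 4 were the bHLH factor Neurod6 (0.77), the RNA-binding protein Elavl2 (0.44), thymosin beta 4 (Tmsb4x, 0.46) and the doublecortin-like kinase Dclk2 (0.31), and Nfix (-0.19) fell. Against control 9 rose and 2 fell, beside 9.59% called over all genes, among them the growth-cone protein Gap43 (0.55), Elavl4 (0.41) and Calb2 (0.55), the calretinin gene of immature granule neurons and hilar cells. Neurod6, which CA-field pyramidal neurons express strongly, was 11.81, 11.72 and 11.68 with agomelatine, against 10.72, 11.15 and 11.04 under stress and 10.21, 10.57 and 11.09 in controls.

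Of 12 tested mature granule neuron genes out of 25 listed, 1 rose and 3 fell against stress, where 10.8% of all genes were called, with a median of -0.21 beside -0.03 over all genes. Rasgrp1 rose by 0.34, and C1ql2, C1ql3 (-0.24) and Pdzd2 (-0.40) fell. Against control, where 9.59% of all genes were called, 1 rose and 5 fell, with a median of -0.21, and Prox1 was among the 5. Calb1, the calcium buffer of mature granule neurons, fell by 0.39 against fluoxetine, 0.36 against imipramine and 0.33 against tianeptine (adjusted p 0.00542 to 0.0132), but was -0.19 against stress (0.147).

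Stem cell and radial glia genes, 24 tested of 29, had 2 higher and 1 lower against stress, close to the 10.8% called over all genes, and a median of -0.10 beside -0.03. The receptor Lpar1 (0.58) and the tetraspanin Cd9 (0.35), which oligodendrocytes also carry, rose, and Thrsp (-0.73), a lipid synthesis regulator of quiescent stem cells in mice, fell. Hes5, a Notch target of radial glia, was -0.25 against stress (adjusted p = 0.114) and fell by 0.32 against fluoxetine (0.0467). The stem cell factor Sox2 (-0.12 against stress) and the astrocyte and radial glia filament Gfap (-0.19) passed in no comparison.

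Proliferation genes were thinly measured, with 12 tested of 34. None was called with agomelatine against stress or control, where 10.8% and 9.59% of all genes were called. Cyclin E1 (Ccne1) fell by 0.26 against fluoxetine and by 0.26 against tianeptine, where 11.8% and 13.5% of all genes were called. Against the 3 other drugs averaged 0 rose and 2 fell, beside 19.1% of all genes. The replication genes Mcm2 (0.11 against stress) and Pcna (0.18) were not called in any comparison, and Top2a averaged 6.54, below the filter.

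Among 48 tested of 56 niche signal genes, 0 rose and 4 fell against stress, a share below the 10.8% called over all genes. They were the hedgehog receptor component Smo (-0.42), the serotonin receptor Htr1a (-0.40), the chemokine Cxcl12 (-0.37) and the BMP antagonist Chrd (-0.24). Htr1a, densely present in granule neurons, was 10.76, 10.84 and 11.22 with agomelatine, against 11.44, 11.23 and 11.34 under stress. Bdnf (0.04 against stress) and Bmp4 (0.14) passed in no comparison. In stress against control and in each of the other 3 drugs against stress, 0 members of all 5 lists were called.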

How the data were processed

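Gene expression was measured on Affymetrix arrays in 18 rats, 3 per group. The submitters' processing notes name RMA and Affymetrix Expression Console 1.2 for the deposited values, which are log2 expression per probe set. RMA corrects background, forces arrays to 1 distribution and combines probes, and low signals can be compressed. The arrays' number limits the precision, and their run dates and genome build are not given in the sources used here.

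Of 29214 probe sets, 15310 carried 1 symbol, 323 several, and 13581 were unnamed here. The brightest 1-symbol probe set stood for each gene, kept at or above the 25th percentile of means (log2 7.165). Arrays of a control animal were averaged. All animals entered 1 model of group means in limma 3.58.1 (R 4.3.3; eBayes with trend, 12 residual degrees of freedom), with p-values adjusted by Benjamini-Hochberg over 10804 genes. The fit was tested on simulated data. The p-values measure only the spread between these animals. Errors are SE of a difference or SD of 3 animals.

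Members, lists and alternatives were chosen with earlier results of these data known. All members, a panel of 12 genes, up to 6 called genes per list and comparison by p, and the genes most like Dcx and Sox11 were named by rule; Ttr, Kl, Neurod6 and Htr1a values per animal, and the E-box motif, were chosen after values were seen. Replicate numbers recur across groups in the labels. Over 45 pairs of animals with the same number, the correlation of deviations ran from -0.30 to 0.29 and exceeded 0.1 in 10, so the numbers were not used as pairs. Alternatives changed the filter, control arrays, scaling, variance model, covariates, threshold and animals.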

Additional observations from a re-analysis of the deposited data

Results flagged for a closer look

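Some members differed between agomelatine and another drug by a test of that difference in limma, both drugs being given on the same stress. Nhlh1 differed by -0.77 in agomelatine against fluoxetine, -0.95 against imipramine and -0.90 against tianeptine, and was lower in 3 of 3 agomelatine animals than in all animals of each. Neurod1 differed by -0.44 in agomelatine against fluoxetine, -0.32 against imipramine and -0.37 against tianeptine, again without overlap. In these 3 comparisons 24.5%, 28.2% and 26.9% of all genes did not overlap, and 11.8%, 9.39% and 13.5% were called. Igfbpl1 rose by 0.41 against fluoxetine and by 0.39 against tianeptine, and Sox11 by 0.32 against fluoxetine. The Sox11 call ended in 17 of 24 alternatives, and neither Igfbpl1 call held without agomelatine animal 1. Agomelatine animal 1, the highest for Igfbpl1, had a choroid plexus score of 3.46. Doses and vehicles differed between agomelatine and these drugs and cannot be told apart from the drug. Groups of 3 animals were not screened by Dixon's test, and the values without each animal are given with the other alternatives.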

How the results depend on the processing

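Arrays give no read depth, and 3 animals a group limit every result. In the pairwise comparisons Nhlh1 kept its calls with agomelatine under all alternatives run except the mature granule neuron and oligodendrocyte scores as covariates, with differences from stress of -1.11 to -0.72 where the call was kept. With either of these covariates 0 members were called in each agomelatine comparison and in the F test. No gene at all was called against stress with the oligodendrocyte score, so that count is not particular to the members. The share of all genes called with the granule neuron score is not given here, and its count is not a result about the members. The oligodendrocyte covariate put Igfbpl1 at -0.20 ± 0.24 against fluoxetine (limma, adjusted p = 0.782) and -0.29 ± 0.26 against tianeptine (0.730). Against the 3 drugs averaged it was -0.28 ± 0.24 (0.709). None of these passed, and the score by itself separates the agomelatine animals from the rest, so the sign is not settled. Against control the count of 2 became 1 with no filter, with every probe set on its own, with eBayes without trend, with array weights, with only the groups compared, with the choroid plexus or CA pyramidal score as covariate, and without agomelatine 1 and stress 1 together. It became 4 when each of the 21 arrays entered with a random term per animal, a fit that counted a repeat array nearly as a further animal. At an adjusted p under 0.1 it was 4 too. Against stress the count of 1 became 2 with the 50th percentile filter, with repeat control arrays only or with arrays centred on equal medians, and 3 at an adjusted p under 0.1. Against fluoxetine the count of 4 became 1 with only the groups compared, and 2 with the choroid plexus or CA pyramidal covariate or without the pair of animals. Against imipramine the count of 2 became 1 under these 3. The F test's 2 became 1 with array weights or the choroid plexus covariate, and 0 with the CA pyramidal covariate or without the pair of animals. Leaving out 1 animal gave counts of 1 to 3 against stress, control and imipramine and in the F test, 2 to 4 against fluoxetine and the 3 drugs averaged, 2 to 3 against tianeptine, and 0 elsewhere. The lowest counts in these 7 came without agomelatine animal 1, and also without control animal 1 or 2 against control, fluoxetine animal 1 or 3 against fluoxetine, imipramine animal 2 or 3 against imipramine, tianeptine animal 1, 2 or 3 against tianeptine, any stress animal against stress, and agomelatine animal 2 in the F test. Against stress the count was 2 without agomelatine animal 2 and 3 without agomelatine animal 3. With the replicate number as a block, the counts of members stayed within 1.5 times the main ones, and Sox11 in agomelatine against fluoxetine lost its call (0.32, adjusted p = 0.0644). The causes of these changes were not tested. The number of all genes called moved between alternatives too. Apart from the totals that follow, the share of all genes is not given beside these counts. A changed count of members is therefore no result about the members. In agomelatine against stress, 1163 genes were called in all and 163 with only the groups compared, 573 without stress animal 2 and 637 with array weights. In agomelatine against control, 1036 were called, 1864 with first control arrays only and 670 with repeat arrays only. The mature granule neuron and CA pyramidal covariates and the omitted pair were chosen after seeing the data.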

Other observations

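The genes most like Nhlh1, Neurod1 and Igfbpl1 were looked up after their values were seen. Over the 18 animals Nhlh1 was followed most closely by Ing4 (r = 0.94, 0.81 within groups), Cdon (0.92, 0.80) and the serotonin receptor Htr1a (0.92, 0.81), and ran most against Cpne8 (-0.92, -0.83 within groups). Neurod1 was followed by C8h11orf87 (0.94, 0.79 within groups) and Wdr54 (0.92, 0.89), and the closest within groups of the 6 listed was the activity-regulated factor Mef2d (0.91, 0.95). Prnp, the prion protein gene, ran most against it (-0.89, -0.87 within groups). Igfbpl1 was followed by the glucose transporter Slc2a12 (0.94, 0.90 within groups), Tmem72 (0.92, 0.92) and the cilium gene Cfap126 (0.92, 0.90). These values are descriptions of 18 animals that share group structure and array normalisation.

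Against the 3 other drugs averaged, agomelatine animals had 8 other immature neuron genes higher and 3 lower of 41 tested, and the lower ones were Bhlhe22 (-0.32), Rnd2 (-0.26) and Nfix (-0.23). In the same comparison the neuregulin receptor Erbb4 rose by 0.38 and Igf2 by 0.94, where 19.1% of all genes were called. Rnd2 and Igf2 are named outside the rule, with their values already known. Igf2 is also made by choroid plexus and meninges, and the choroid plexus markers were high in agomelatine animal 1. The source of the Igf2 signal was not tested.

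The means of the members' centred values lay between -0.123 and -0.00322 in agomelatine animals and between -0.0912 and 0.130 in the others, so their ranges overlapped.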
